A study of Mus musculus with 24 samples.

Results

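Adding cabozantinib (cabo) to IL-27 gene therapy was examined here in 6 of the 24 tumors of the series: 3 intratibial tumors from mice given the IL-27 vector and cabo (IL-27+Cabo, mice 20, 22 and 24) and 3 from mice given the IL-27 vector and the drug's vehicle (IL-27, mice 4, 6 and 8). The labels alone set which 6 tumors form these groups. All mice were male C57/BL6, 8 to 10 weeks old, and each tibia received 100000 TC2Ras-Luc cells. TC2Ras-Luc is a mouse prostate adenocarcinoma line, made from TRAMP-C2 cells by adding an activated H-Ras, an androgen receptor and firefly luciferase. All 6 mice shared the intramuscular IL-27 vector, which was carried into muscle by sonoporation (microbubbles and ultrasound). Cabo was given by gavage at 30 mg/kg in 100 µL of 15% polyvinylpyrrolidone (PVP), every day for 2 weeks, and the IL-27 mice received PVP. Tumors were harvested on day 14, 1 per mouse. The same drug comparison under the empty vector (Cabo, mice 21, 25 and 27, against Control, mice 3, 5 and 7) shares no tumor with these 6 and is set beside them where it bears on a result. RNA from sections of the tumors was sequenced in bulk, so fewer cells of a type and less RNA per cell cannot be told apart. This holds for every value below.

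Cabo is a small molecule that blocks several receptor tyrosine kinases, among them the receptors for vascular endothelial growth factor (VEGF), MET, KIT, RET and AXL. VEGF signalling through VEGFR2 makes the leading cells of a sprouting vessel, the tip cells, switch on genes such as Dll4 and Esm1, and VEGFR3 does the same work in lymphatic vessels. IL-27 is a cytokine of 2 chains, p28 (gene Il27) and EBI3, and signals through JAK and STAT proteins, whose target genes overlap with those that interferons induce. In interferon-treated cells, factors of the STAT and IRF families bind short GAAA repeats close to the start of antiviral genes.

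The 6 libraries held 63729005 to 73610110 counts. Unless another fit is named, p-values measure the spread between 3 and 3 tumors of separate mice. Fits over all 4 day 14 groups and the interaction take their spread from 12 tumors, and fits with a tumor left out from fewer. The library of IL-27+Cabo mouse 20 stood apart. Its correlation with mice 22 and 24 over all genes tested was 0.875 and 0.877 on the log scale, whereas mice 22 and 24 had 0.976 with each other. By the study's own limit on the correlation within a group, mouse 20 would be an outlier, and it was kept here as in the design. Mouse 20 also differed by transcript length. Relative to mice 22 and 24, its median log2 level was 1.14 higher in the shortest of 4 length classes of genes, and the difference was -0.91 in the longest. Skeletal muscle genes were higher in the IL-27+Cabo tumors than in the IL-27 tumors, except for IL-27 mouse 8. The summed level of 24 muscle genes was 5751, 4978 and 1963 CPM (counts scaled to a common library size) in IL-27+Cabo mice 20, 22 and 24, against 42.5, 89.8 and 2467 CPM in IL-27 mice 4, 6 and 8. Thus IL-27 mouse 8 lay within the IL-27+Cabo range. In the other tumors muscle level and cabo went together, and a fit with the muscle level as a covariate cannot tell them apart. Of the 14 osteoblast and osteocyte genes, Bglap, Bglap2 and Sost, which define mature cells, had 0 counts in all 6 tumors. Others were detected, and the list summed to 4169 to 6676 CPM, most of it Col1a1, Col1a2 and Spp1, which other cells also make.

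No gene passed the adjusted threshold in the comparison of the 3 IL-27+Cabo with the 3 IL-27 tumors (edgeR quasi-likelihood test, Benjamini-Hochberg adjustment, 18570 genes tested, 0% called). The smallest adjusted p was 0.305. At an unadjusted p under 0.05 the same test had 900 genes (4.85%). Other tools on the same tumors did make calls. DESeq2 called 119 genes, 61 higher (0.211%) and 58 lower (0.2%), and an edgeR fit that took its spread from all 4 day 14 groups called 15, of which 2 were higher (0.0101%) and 13 lower (0.0653%). By the study's limits for a differentially expressed gene (DEG) of the intratibial tumors, which are an unadjusted p under 0.05 together with a log2 fold change of 1.5 or more in either direction, 330 genes were upregulated (1.78%) and 108 downregulated (0.582%) in edgeR. With DESeq2, the tool of the original work, the same limits gave 715 and 221. The methods also state the size limit as a plain fold change, which was not used here. The groups did not overlap for 1264 genes that were higher (6.81%) and 1059 that were lower (5.7%) in IL-27+Cabo. Upregulated DEGs numbered 172 without IL-27 mouse 6, 736 without IL-27 mouse 8, 564 without mouse 22 and 608 without mouse 24. Without mouse 20 the test had 2121 genes (11%) at an unadjusted p under 0.05, with 335 upregulated (1.74%) and 196 downregulated (1.02%) DEGs and still 0 adjusted calls. Without both mouse 20 and mouse 8, a choice made after seeing the data, 455 genes passed. In the following paragraphs, a DEG is a gene within the study's limits, CPM values are given in the order of mice 20, 22 and 24 and then 4, 6 and 8, and a fold change is IL-27+Cabo relative to IL-27 with its standard error (SE).

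Dll4, Esm1 and Flt4, genes of sprouting or lymphatic vessels, were among the genes with the lowest p-values of the comparison. Dll4, the Notch ligand of tip cells (chr2:119325784-119335962, plus strand, GRCm38), was at 0.899, 1.29 and 0.873 CPM with cabo and 9.49, 12.7 and 11.3 CPM without. The highest tumor with cabo was thus far below the lowest without, and the fitted difference between the groups was 11.1-fold (log2 fold change -3.47, SE 0.36). Esm1, a proteoglycan secreted by tip cells, had 0.281, 0.379 and 0.225 against 4.99, 11.9 and 5.88 CPM (-4.70, SE 0.53), a fold of 26.0. Flt4, which encodes VEGFR3, had 1.10, 1.67 and 1.97 against 13.4, 12.4 and 11.9 CPM (-3.01, SE 0.35). Mouse 20 gave values like those of mice 22 and 24 for all 3 genes. Dll4, Flt4 and Esm1 were also called by the fit over all 4 day 14 groups, with adjusted p of 0.000701, 0.00918 and 0.0122 in edgeR, and by DESeq2.

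**Figure D1:**
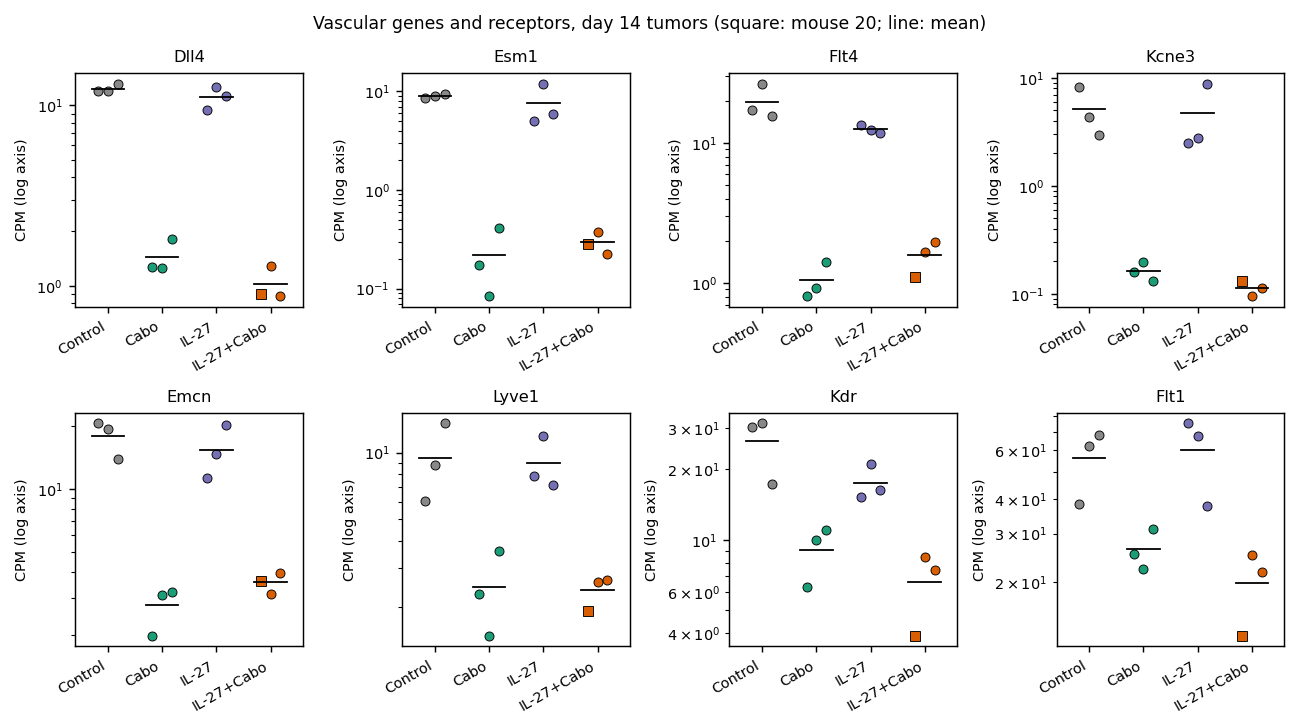
Level of 8 vascular genes in each day 14 tumor, in CPM on a log axis, for the 4 groups of 3 tumors; points are tumors, the square is IL-27+Cabo mouse 20 and the line is the group mean. In every panel the 3 IL-27+Cabo tumors lie below the 3 IL-27 tumors, and the 3 Cabo tumors below the 3 Control tumors (11.9% of all genes did the latter).

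The remaining genes at the head of the downregulated DEGs were of mixed kinds. Kcne3, a potassium channel subunit, was at 0.131, 0.0948 and 0.113 CPM with cabo, which is 7 or 8 counts a library, and at 2.51, 2.77 and 8.81 CPM without (-5.38, SE 0.70). Ackr2, a scavenging receptor for inflammatory chemokines found on lymphatic endothelium, had 0.0749, 0.122 and 0.0422 against 2.68, 3.30 and 1.12 CPM (-4.88, SE 0.70). Igfbp3, which binds insulin-like growth factors, had 51.3, 40.3 and 26.3 against 182, 152 and 249.9 CPM (-2.32, SE 0.35). In all 3 genes the groups did not overlap. Mest, an imprinted gene of growing tissue, differed by -3.05 (SE 0.46), Robo1, a guidance receptor, by -2.62 (SE 0.40), and Tmem255a by -2.79 (SE 0.44) on the log2 scale. Gm21541 (-4.18, SE 0.62) is a near-identical copy of the Ccl21 chemokine genes, and its counts are uncertain because reads could be split among the copies. Mest overlaps Copg2 and Tmem255a overlaps Zbtb33 on the opposite strand, and whether counting used strand is not given in the sources used here. Of these 10 leading genes, all but Ackr2 and Tmem255a were also called in the fit over the 4 groups, and all 10 by DESeq2.

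Among the 13 kinases that cabo is known to bind, the VEGF receptors and Kit were lower in all 3 IL-27+Cabo tumors than in any IL-27 tumor. Kdr, encoding VEGFR2, the main receptor of VEGF-A on blood vessels, had 3.89, 8.48 and 7.45 against 15.2, 21.2 and 16.4 CPM (log2 fold change -1.44, SE 0.37). Flt1, encoding VEGFR1, had 12.8, 25.1 and 21.8 against 75.2, 67.5 and 37.7 CPM (-1.62, SE 0.38). Kit, the stem cell factor receptor, also kept its groups apart, at 2.32, 3.68 and 3.98 against 11.1, 6.72 and 7.15 CPM (-1.34, SE 0.38). With Flt4, these are 4 of 12 tested kinases whose groups did not overlap in the lower direction (5.7% of all genes), and 2 of the 4 (Flt4 and Flt1) were DEGs (0.582% of all genes). Without mouse 20 (Flt1 at -1.38) and with the muscle covariate (-0.87) Flt4 was the 1 DEG left. Mouse 20 was the lowest of the 3 tumors for all 4 genes.

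Of the other 8 tested kinases, 7 had overlapping groups. Met, the hepatocyte growth factor receptor, was at 25.8, 99.98 and 77.4 against 53.2, 57.1 and 52.3 CPM (0.29, SE 0.46). Axl, a receptor for GAS6, had 240, 587 and 509.8 against 563, 454 and 511 CPM (-0.22, SE 0.36). In both genes mouse 20 was far below mice 22 and 24, and without it Axl differed by 0.09. Mertk (0.04, SE 0.63), Tyro3 (-0.16, SE 0.26), Tek (-0.17, SE 0.39), Flt3 (0.02, SE 0.41), Ret (0.86, SE 0.62) and Ntrk2 (0.94, SE 0.54) followed. The exception was Ret, whose 3 IL-27+Cabo tumors (1.35 to 2.12 CPM) lay just above the IL-27 tumors (0.294 to 1.33 CPM). Ros1 had 0 counts in all 6. The median over the 12 tested kinases was -0.16, or 0.01 without mouse 20.

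Ligands of these receptors were little different as a list, with 5 of 13 higher, 8 lower and a median of -0.17, beside 0.05 over all genes tested. Angpt2, a TIE2 ligand that tip cells release and that loosens the vessel wall, was the exception. It was at 7.92, 8.07 and 10.1 CPM with cabo and 23.7, 38.2 and 20.6 CPM without (-1.69, SE 0.33), and was the list's only DEG. The list had 0 downregulated DEGs without IL-27 mouse 6 and with the muscle covariate, where Angpt2 was at -1.30. Vegfa spread widely in the IL-27 tumors, at 519, 220 and 161 CPM, and the IL-27+Cabo tumors at 139, 148 and 176 CPM overlapped that range (-0.98, SE 0.45). Vegfc, the ligand of VEGFR3, had 82.5, 51.0 and 61.8 against 81.9, 73.5 and 62.3 CPM (-0.17, SE 0.27).

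Lymphatic markers were low in the IL-27+Cabo tumors as a group. Of the 8 tested, 7 had a fold change below 0, 7 had groups that did not overlap (5.7% of all genes) and 6 were downregulated DEGs (0.582% of all genes), with a median log2 fold change of -1.76. Besides Flt4, the DEGs were Lyve1, Ccl21a, Mmrn1, Prox1 and Reln. Lyve1, a hyaluronan receptor of lymphatic capillaries, had 1.93, 2.60 and 2.65 against 7.86, 11.9 and 7.17 CPM (-1.93, SE 0.36). Prox1, the transcription factor that sets lymphatic identity, had 0.562, 1.08 and 0.972 against 2.69, 3.28 and 1.50 CPM (-1.53, SE 0.49). Mmrn1 was less even within its groups, with 0.225, 1.80 and 0.986 against 4.15, 12.8 and 2.88 CPM (-2.74, SE 0.88). Ccl21a has near-identical copies and is uncertain. Pdpn (156, 210.0 and 206 against 243, 268 and 231 CPM) and Nrp2, which many other cells also make, differed by -0.40 and 0.19. Leaving out IL-27 mouse 6, in which Mmrn1, Lyve1 and Prox1 were highest, left 3 DEGs and a median of -1.48. With the muscle level as a covariate there were also 3 DEGs, with a median of -1.25.

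Markers of blood vessel endothelium leaned the same way with smaller differences: 18 of 21 tested were lower (46.1% of all genes), 8 did not overlap (5.7%), and 3 (Emcn, Cldn5 and Gpihbp1) were DEGs (0.582%), with a median of -0.72. Emcn, a sialomucin of capillaries and veins, was at 3.63, 3.14 and 3.98 CPM with cabo and 11.3, 14.6 and 20.03 CPM without (-2.11, SE 0.34; adjusted p = 0.0271 in the edgeR fit over 4 groups). Robo4 had 4.23, 3.40 and 3.46 against 6.72, 9.80 and 9.23 CPM (-1.24, SE 0.32). Pecam1, the general endothelial marker CD31, differed less, at 27.04, 33.8 and 40.8 against 50.1, 44.6 and 66.6 CPM (-0.69, SE 0.28). Eng (0.05, SE 0.24), Ptprb (0.14, SE 0.42) and Clec14a (-0.01, SE 0.44) had no separation. Without mouse 24 or without mouse 8 the list had 2 DEGs, and without mouse 20 it had 5.

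Of the 14 tested genes of the tip cell and Notch list, 3 were downregulated DEGs (0.582% of all genes): Dll4, Esm1 and Hey1. Hey1, a transcriptional repressor that Notch induces, had 1.29, 0.664 and 0.605 against 3.32, 2.26 and 4.64 CPM (-2.01, SE 0.51). Unc5b, a netrin receptor of tip cells, was at 51.6, 99.98 and 103 against 261, 197 and 139.9 CPM (-1.26, SE 0.37). Lfng, a glycosyltransferase that modifies Notch, lay the other way without overlap, at 16.9, 17.7 and 15.3 against 7.19, 6.35 and 13.3 CPM (0.88, SE 0.36). The Notch receptors and Jagged ligands (Notch1, Notch4, Jag1 and Jag2) had overlapping groups, and the list's median was -0.58, or -0.29 without mouse 20. Pericyte and mural genes did not share a direction, with 6 higher, 7 lower and a median of -0.09. Mcam (7.96, 12.7 and 14.7 against 31.7, 28.2 and 50.0 CPM, -1.66, SE 0.36) and Kcnj8 (-1.70, SE 0.46) were downregulated DEGs (0.582% of all genes). The smooth muscle myosin Myh11 (2.09, SE 0.74) was an upregulated one (1.78% of all genes). Without IL-27 mouse 8 the list had 0 downregulated and 3 upregulated DEGs, without mouse 20 it had 1 downregulated, and without IL-27 mouse 4 or 6 it had 0 upregulated, with medians of 0.26 and 0.11. Of the basement membrane genes 9 of 11 were lower (median -0.45), none of them DEGs, but with the muscle covariate 7 of 11 were higher (median 0.31), and without mouse 20 the median was -0.14. Nid2 was at 3.26, 18.1 and 10.6 against 28.5, 26.4 and 28.4 CPM. It was the only 1 of the 11 whose groups did not overlap, beside 5.7% of all genes in that direction.

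At the head of the upregulated DEGs were genes with little or no signal in the IL-27 tumors. Sim2, a transcription factor of the bHLH-PAS family, had 64, 109 and 58 counts with cabo and 0 in each IL-27 tumor, and was at least 80.0-fold higher, counting 3 reads over the IL-27 group as its limit. Sim2 was also at 0 in the 3 Control tumors and at 0.373 to 0.802 CPM in the 3 Cabo tumors. Its adjusted p was 0.0358 in the edgeR fit over the 4 groups. Prn (28, 42 and 36 counts against 0, at least 36.7-fold) shares exons with Prnp and Prnd on the same strand, so its counts are uncertain. Bmx, a TEC-family kinase of endothelium and myeloid cells, had 33, 12 and 45 counts against 0 (at least 32.4-fold).

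Other leading upregulated DEGs were measured in all 6 tumors. Mapt, the microtubule protein tau, had 8.18, 7.75 and 4.10 against 1.10, 0.851 and 1.68 CPM (2.44, SE 0.46; adjusted p = 0.0434 in the edgeR fit over 4 groups). Edn1, the vasoconstrictor endothelin, had 2.30, 1.61 and 2.10 against 0.167, 0.402 and 0.388 CPM (2.62, SE 0.53), so this endothelial product was higher where the endothelial markers above were lower. Rab44, a large Rab protein of bone marrow cells, had 1.01, 1.94 and 2.46 against 0.292, 0.232 and 0.230 CPM (2.81, SE 0.53). Rasgrp4, an exchange factor for Ras in mast and myeloid cells (2.27, SE 0.48), the glutathione transferase Gstt1 (2.23, SE 0.49), Lrrc17, an inhibitor of osteoclast formation (1.78, SE 0.39), and the NF-kappaB activator Card14 (2.93, SE 0.65) also had groups that did not overlap. Rasgrp4, Lrrc17 and Card14 each overlap another gene on the opposite strand (Fam98c, Fbxl13 and Sgsh).

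Genes of the type I interferon response formed the most uniform list on the higher side. All 22 tested had a fold change above 0, 18 were upregulated DEGs, and in 17 the 3 IL-27+Cabo tumors lay above the 3 IL-27 tumors, with a median log2 fold change of 1.89. Over all genes tested 53.9% were above 0, 1.78% were upregulated DEGs and 6.81% were higher without overlap. None of the 22 passed the adjusted threshold in the main test, whereas DESeq2 called 6 (Oasl1, Oas3, Ifit1, Oas2, Mx2 and Xaf1), beside 0.211% of the genes it tested. Interferons induce these genes, many of which encode antiviral proteins. The promoters of several hold the interferon-response motif, here GAAA, any 2 bases and GAAA again, read on either strand within the 250 bases before the gene's start. It occurs in 7 of the 16 list promoters that RefSeq (GRCm38.p6) held, 43.8%, beside 936 of all 27025 promoters, 3.46%, and in 4 of 14 promoters (28.6%) of the interferon-gamma and antigen presentation list. A match describes the letters only. The 7 stretches are printed 5′ to 3′ on the gene's strand to show the letters that the 7 promoters share, with matches in capitals and with the reverse complement (TTTC, 2 bases, TTTC) where the match is on the other strand. A further match in the Ifit3 promoter lies outside its stretch.
Isg15 (chr4:156200862-156200921, minus strand): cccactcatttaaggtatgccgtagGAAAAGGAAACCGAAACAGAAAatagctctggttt
Ifit1 (chr19:34640760-34640819, plus strand): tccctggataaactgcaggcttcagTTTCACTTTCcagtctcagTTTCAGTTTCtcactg
Ifit3 (chr19:34583348-34583407, plus strand): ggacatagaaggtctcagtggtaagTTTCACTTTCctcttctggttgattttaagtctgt
Oas1a (chr5:120907526-120907570, minus strand): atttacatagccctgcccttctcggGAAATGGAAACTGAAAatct
Oas3 (chr5:120777700-120777759, minus strand): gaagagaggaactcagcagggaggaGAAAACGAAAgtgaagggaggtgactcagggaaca
Rsad2 (chr12:26456538-26456597, minus strand): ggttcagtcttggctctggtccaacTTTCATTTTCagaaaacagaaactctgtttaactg
Bst2 (chr8:71537568-71537627, minus strand): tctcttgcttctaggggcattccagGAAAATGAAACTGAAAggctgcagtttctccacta

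Oasl1, an inhibitor of Irf7 translation, had the lowest p of the list, with 40.7, 41.8 and 30.2 CPM with cabo and 11.5, 12.4 and 17.4 CPM without (1.43, SE 0.29). Oas3, a synthase of the messenger that activates RNase L, had 9.40, 34.2 and 17.996 against 2.36, 1.76 and 5.29 CPM (2.68, SE 0.62). Ifit1, which holds back the translation of viral RNA, had 101, 91.8 and 52.3 against 14.6, 11.1 and 33.8 CPM (2.02, SE 0.50). In each of these, IL-27 mouse 8 was the highest of its group and still below all 3 IL-27+Cabo tumors.

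Isg15, a ubiquitin-like modifier, had 91.4, 30.6 and 14.6 against 4.94, 2.99 and 13.7 CPM (2.64, SE 0.83), so mice 24 and 8 nearly met and mouse 20 was far above. Irf7, the transcription factor that amplifies interferon production, had 83.9, 80.8 and 45.5 against 10.3, 6.45 and 32.9 CPM (2.06, SE 0.63). Bst2, a membrane tether of virions, had 135, 40.9 and 26.1 against 10.51, 18.3 and 25.9 CPM (1.87, SE 0.67). For Isg15 and Bst2 mouse 20 held the highest value, while for Oas3, Rsad2 and Ifih1 it held the lowest of its group. The 4 members that were not DEGs were Oasl1 (1.43), Ifih1 (1.17), Ddx58 (1.00) and Ifit2 (0.86), of which Oasl1 and Ifih1 missed the limit on size and not that on p. Oas1a and Ifit3 have close paralogs, so their counts are uncertain.

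**Figure D2:**
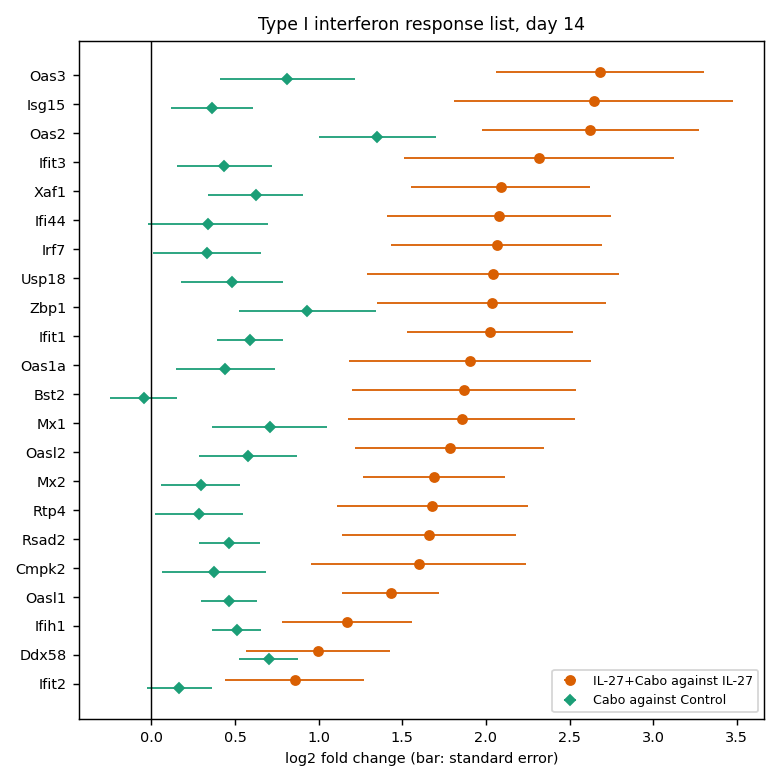
Log2 fold change with its standard error for the 22 genes of the type I interferon list, for IL-27+Cabo against IL-27 and for Cabo against Control. All 22 values under IL-27 are above 0, with a median of 1.89, and those under the empty vector have a median of 0.46.

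The interferon difference came with low levels in 2 of the IL-27 tumors. Summed over the 22 genes, the level was 823, 1032 and 601 CPM in IL-27+Cabo mice 20, 22 and 24 and 189, 155 and 394 CPM in IL-27 mice 4, 6 and 8. In the Cabo tumors it was 570 to 910 CPM and in the Control tumors 372 to 622 CPM. IL-27+Cabo mice 20 and 24 thus fell in the range of the Cabo tumors and mouse 22 above it, and IL-27 mice 4 and 6 fell below all other day 14 tumors. Within these 6 tumors, IL-27 mice 4 and 6 were lowest in the muscle level too. In Control mice 3, 5 and 7 the muscle level was 12.7, 198 and 39.8 CPM and the interferon level 511, 622 and 372 CPM. The part of muscle in the result was not tested beyond the covariate. With the muscle level as a covariate, all 22 remained above 0, the median was 1.02 and 2 were DEGs. Without IL-27 mouse 4 there were 4 DEGs (median 1.69), without IL-27 mouse 6 there were 8 (1.57), without mouse 22 there were 9 (1.63), and without mouse 20 there were 15 (1.88). Without IL-27 mouse 8 there were 19 (2.59). With mice 20 and 8 both left out, 20 of 22 passed the adjusted threshold in edgeR (1.9% of all genes were called higher). That choice was made after seeing the data and took out the IL-27 tumor with the highest interferon level, so it is no independent support.

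Genes of antigen presentation and the interferon-gamma response were above 0 in 20 of 20 (53.9% of all genes), with 5 DEGs (1.78%), 7 without overlap (6.81%) and a median of 1.33. H2-K1, a class I heavy chain, had 557, 342 and 265 against 112, 94.8 and 189 CPM (1.54, SE 0.40), and H2-D1 had 583, 479 and 403 against 155, 193 and 299 CPM (1.16, SE 0.33). Class I genes share sequence, so their split is uncertain. Cxcl10, a chemokine that draws activated T cells, had 57.3, 80.6 and 39.7 against 7.80, 4.58 and 31.5 CPM (2.00, SE 0.72). Class II genes did not separate. H2-Ab1, with a high value in IL-27 mouse 8, was at 97.3, 47.9 and 31.0 against 9.76, 6.70 and 48.2 CPM (1.43, SE 0.81). With the muscle covariate the list had 0 DEGs and a median of 0.28. It had 0 DEGs without IL-27 mouse 6, 1 without IL-27 mouse 4 or mouse 22, and 13 without IL-27 mouse 8 (median 2.13).

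**Figure D3:**
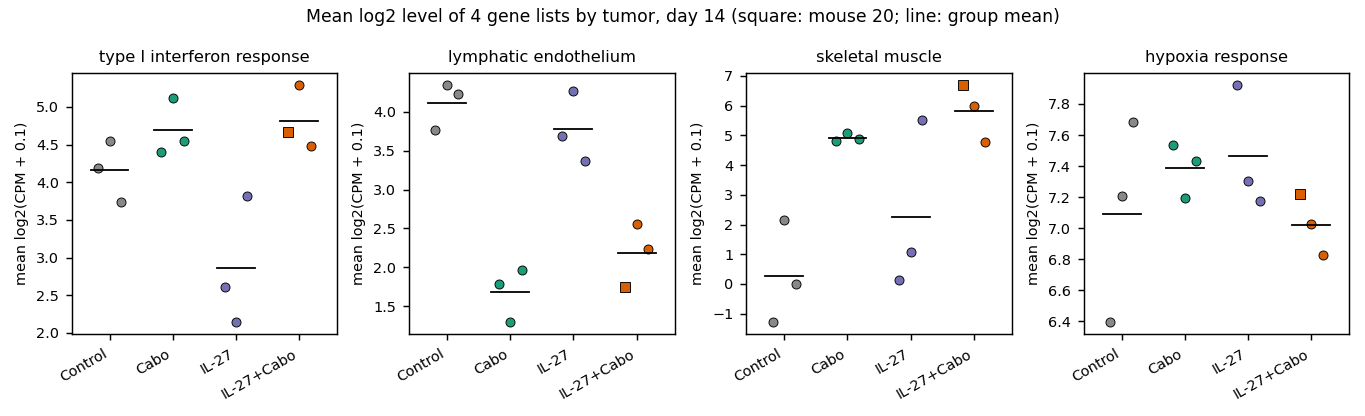
Mean log2(CPM + 0.1) over the genes of 4 lists in each day 14 tumor, by group of 3; the square is IL-27+Cabo mouse 20 and the line is the group mean. For the interferon and muscle lists, IL-27 mice 4 and 6 are low and mouse 8 is near the IL-27+Cabo tumors, while the lymphatic list separates both cabo groups from both groups without it.

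The 2 chains of IL-27 itself were low in every tumor. Il27 had 43, 22 and 10 counts with cabo and 4, 0 and 0 without, and was below the filter for testing. Its annotated exons overlap Apobr on the opposite strand. Ebi3 had 5.49, 3.34 and 2.84 against 0.486, 0.697 and 2.80 CPM (1.53, SE 0.72). IL-27 mouse 8 and IL-27+Cabo mouse 24 nearly met for Ebi3. The vector was injected into muscle, so tumor counts do not check its delivery, and whether its own transcript would be counted under these genes is not given in the sources used here. Over the 10 tested genes of the IL-27 axis the median was 0.16.

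Hypoxia genes leaned lower, with 11 of 14 below 0, 5 lower without overlap (5.7% of all genes) and 1 higher without overlap, 3 lower at an unadjusted p under 0.05 (1.67% of all genes), 0 DEGs and a median of -0.57, which was -0.30 without IL-27 mouse 4 and -0.24 with the muscle covariate. Ndrg1, a stress-response gene induced by low oxygen, had 157, 189.6 and 172 against 506, 439 and 237 CPM (-1.21, SE 0.33), and Pdk1, which slows pyruvate entry into mitochondria, had 99.0, 146 and 141 against 269, 199.97 and 202 CPM (-0.82, SE 0.26). Car9, Ankrd37 and Eno1 were above 0, and Car9 was higher in all 3 cabo tumors (4.74, 3.28 and 3.49 against 3.25, 1.10 and 2.26 CPM). Of the genes downstream of Ras and MAPK, 11 of 14 were below 0 (46.1% of all genes) with a median of -0.22. The phosphatase Dusp4 (40.5, 106 and 89.0 against 319, 523 and 123 CPM, -2.06, SE 0.59) was the DEG (0.582% of all genes), with -0.68 and no DEG in the list under the muscle covariate. The EGF-family ligand Ereg (-1.34, SE 0.38) had the next lowest p. Proliferation genes had no member without overlap and a median of -0.11, from Top2a at -0.40 to Birc5 at 0.80, the latter high in mouse 20 alone (225 CPM against 52.1 and 58.0 CPM).

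T cell genes depended on IL-27 mouse 4. Their summed level was 29.2, 33.9 and 28.4 CPM with cabo and 97.1, 17.0 and 25.1 CPM without, and the median of -0.58 over 14 genes was 0.81 without mouse 4 and 0.96 with the muscle covariate. Zap70, the kinase of the T cell receptor, had 1.09, 2.03 and 1.69 against 8.90, 1.80 and 3.00 CPM. Cd8a was the other way round, at 0.524, 2.10 and 0.704 against 0.264, 0 and 0.230 CPM (2.71, SE 1.20). Macrophage genes were above 0 in 10 of 11 (53.9% of all genes), with 1 upregulated DEG (1.78%) and 3 higher without overlap (6.81%). Their median was 0.83, or 0.37 with the muscle covariate. Csf1r, the receptor that macrophages need to survive, had 129, 168 and 165 against 50.3, 58.8 and 125 CPM (0.96, SE 0.38), and arginase Arg1 180, 155 and 175 against 115, 100.2 and 107 CPM (0.64, SE 0.22). Of the other immune lists, dendritic cell genes had a median of 0.83, B and plasma cell 0.65, NK and cytotoxic 0.55, mast cell 0.54, neutrophil and marrow granule 0.52 and regulatory T cell and checkpoint 0.08, with 0 to 1 DEGs each. The summed B and plasma cell level went the other way, at 113, 136 and 143 CPM with cabo and 215, 234 and 175 CPM without. Without mouse 20 the dendritic cell median was 0.35. Ngp, a granule protein of immature neutrophils, had 0 counts in the 3 IL-27+Cabo tumors against 145, 50 and 31, at least 71.2-fold lower, while S100a8 and S100a9 had overlapping groups.

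All 24 skeletal muscle genes had a fold change above 0 (median 2.30), 3 were DEGs (1.78% of all genes) and 4 had no overlap (6.81%). Without IL-27 mouse 8, in which they were high, there were 22 DEGs (median 5.87), and without IL-27 mouse 4 or 6 or mouse 22 there were 0. The ryanodine receptor Ryr1, for example, was at 66.5, 249 and 98.9 against 2.58, 4.18 and 49.5 CPM. Fibroblast and matrix genes were above 0 in 13 of 13 (53.9% of all genes) with 0 DEGs and a median of 0.59, or 0.94 without mouse 20. Their summed level was 5448, 15395 and 12836 CPM with cabo and 8737.5, 8358 and 6689 CPM without, so mouse 20 lay below the IL-27 tumors. Lox, which cross-links collagen, had 60.6, 129 and 83.3 against 58.4, 31.9 and 47.2 CPM (0.97, SE 0.36). The remaining lists had medians of 0.92 (tendon and synovium), 0.71 (nerve and Schwann), 0.58 (skin keratinocyte), 0.56 (epithelial and prostate), 0.24 (osteoblast and osteocyte), 0.01 (erythroid), -0.00231 (osteoclast and RANKL), -0.84 (cartilage) and -1.51 (adipocyte). Adipoq was at 2.40, 0.366 and 0.0563 against 0.0694, 4.43 and 5.35 CPM, and the summed erythroid level was 176 CPM in mouse 20 against 19.9 and 42.0 CPM in mice 22 and 24. Without mouse 20 the adipocyte and erythroid medians were -4.37 and -1.24, and those of tendon and skin keratinocyte turned to -0.26 and -0.55. With the muscle covariate tendon was at -0.49, cartilage at 0.63 and mast cell at -0.65. The mast cell median was also below 0 with DESeq2 (-0.07) and without the filter (-0.07), and that of regulatory T cells was below 0 without mouse 20, IL-27 mouse 6 or IL-27 mouse 8 (-0.07, -0.25 and -0.08).

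**Figure D4:**
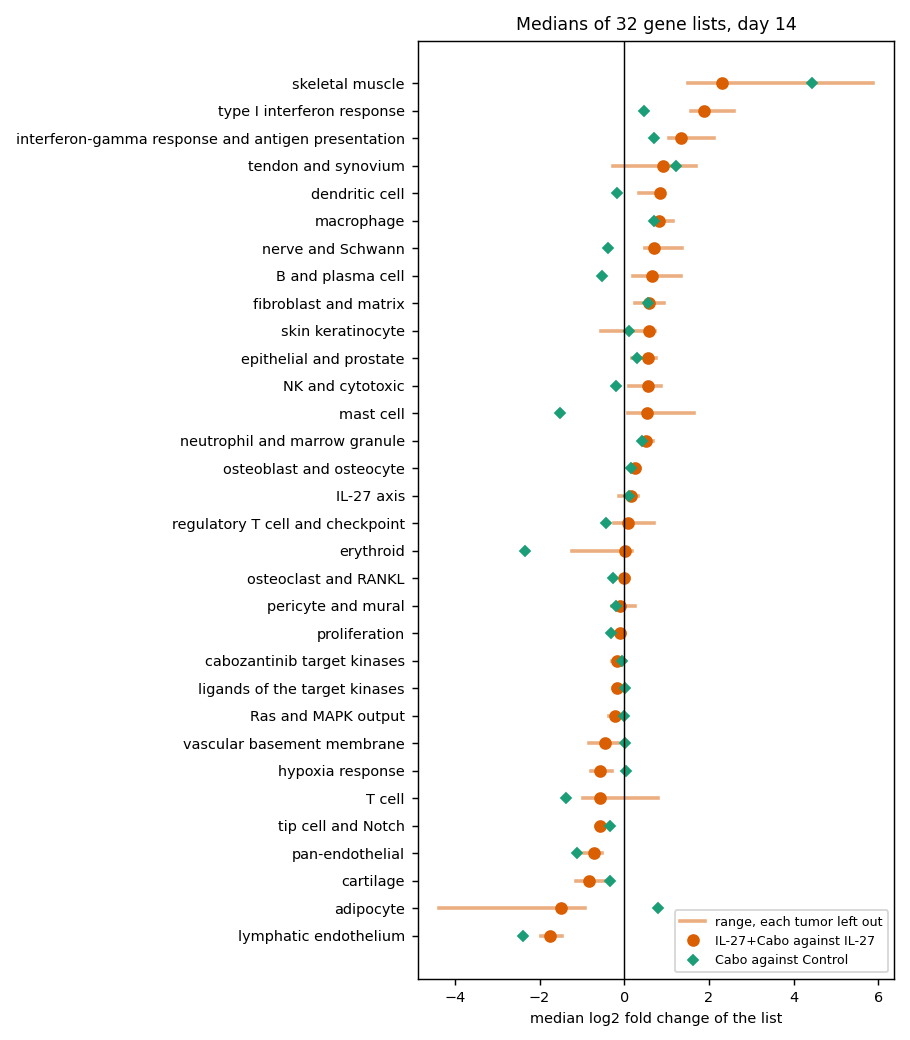
Median log2 fold change of the 32 gene lists for IL-27+Cabo against IL-27 and for Cabo against Control; bars give the range of the first when each of its 6 tumors was left out in turn. The lymphatic list is lowest (-1.76) and the muscle list highest (2.30), and the muscle and adipocyte lists have the widest ranges.

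The comparison of Cabo with Control, in 6 other tumors, showed how much of this recurred without IL-27. There edgeR called 352 genes of 18627 tested, 223 higher (1.2%) and 129 lower (0.693%). That count was 80 to 93 without any 1 of the Cabo mice, 127 without Control mouse 7, 588 without Control mouse 5 and 0 with the muscle level as a covariate. The summed muscle level was 1529, 2255 and 2294 CPM in Cabo mice 21, 25 and 27 and 12.7, 198 and 39.8 CPM in Control mice 3, 5 and 7, so it separated these groups, and beyond the covariate its part in these calls was not tested. Of the 223 genes called higher there, 222 were tested under IL-27 and 219 (98.6%) were above 0, beside 53.9% of all genes. In 80 of them the IL-27 groups did not overlap (36%, beside 6.81%), and 45 were upregulated DEGs (20.3%, beside 1.78%). Of the 129 genes called lower, 125 were tested and 111 (88.8%, beside 46.1%) were below 0. For 60 the groups did not overlap (48%, beside 5.7%), and 39 were downregulated DEGs (31.2%, beside 0.582%). Read the other way, of the 108 downregulated DEGs under IL-27, 104 were tested under the empty vector, 102 were below 0 (beside 51.1% of all genes there) and 57 were DEGs there (beside 1.18%). Of the 330 upregulated DEGs, 308 were tested there, 285 were above 0 (beside 48.9%) and 73 were DEGs (23.7%, beside 1.73%). The fold changes of the 347 called genes tested in both had a Pearson r of 0.884 and a Spearman rho of 0.929 across genes, which are not independent replicates, and those of all 18015 genes tested in both had 0.440 and 0.243.

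**Figure D5:**
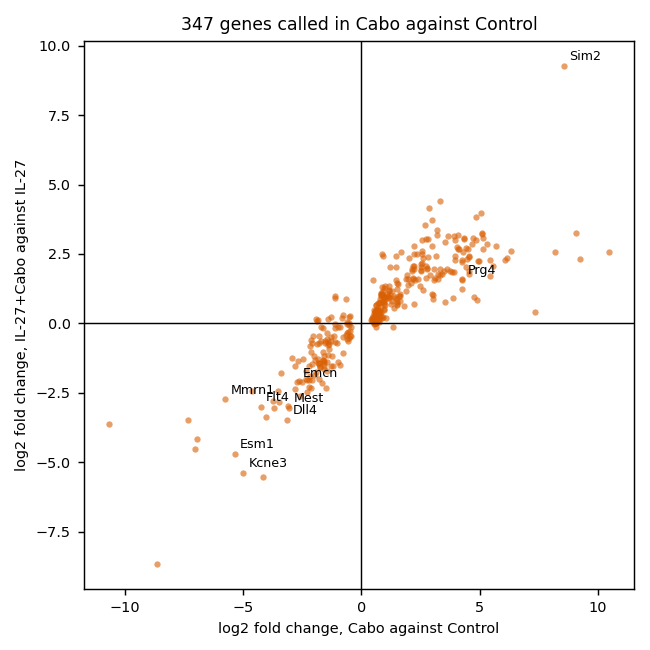
Log2 fold change of IL-27+Cabo against IL-27 plotted against that of Cabo against Control, for the 347 genes called in the latter that were tested in both; each point is a gene. Most points lie in the lower left and upper right, with Dll4, Esm1, Flt4 and Kcne3 low in both and Sim2, whose fitted value rests on groups at 0, high in both.

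The leading downregulated genes were also lower under the empty vector. Dll4 was at 1.26, 1.26 and 1.81 CPM in Cabo mice 21, 25 and 27 and 11.99, 12.1 and 13.2 CPM in Control mice 3, 5 and 7 (log2 fold change -3.13, SE 0.20, adjusted p = 0.00245 by edgeR). Flt4 was at 0.804, 0.920 and 1.41 against 17.3, 26.4 and 15.6 CPM in the same order (-4.26, SE 0.30, adjusted p = 0.00256 by edgeR), against -3.01 under IL-27. Esm1 fell by 5.36 on the log2 scale there (SE 0.48, adjusted p = 0.00314 by edgeR) and Kcne3 by 5.002 (SE 0.46, adjusted p = 0.00331 by edgeR). The lymphatic list had a median of -2.38 there and -1.76 under IL-27, and the endothelial list -1.12 and -0.72. Some lists parted: the type I interferon median was 0.46 with 0 upregulated DEGs (1.73% of all genes) under the empty vector and 1.89 with 18 under IL-27, hypoxia 0.04 and -0.57, erythroid -2.35 and 0.01, and T cell -1.38 and -0.58. In the T cell list edgeR called 8 of 14 genes lower under the empty vector (0.693% of all genes), where the Control tumors had 96.9 to 105 CPM summed. Of the other genes of that list, 2 were upregulated DEGs there (1.73% of all genes). The main edgeR test under IL-27 called no gene of any list, as 0% of all genes were called. DESeq2 and the edgeR fit over the 4 groups did call some list genes, as given above. The differences between these list medians were not tested.

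Whether cabo acted differently with IL-27 was tested as the interaction over the 12 day 14 tumors. Of 19899 genes tested with edgeR, 0 passed the adjusted threshold (smallest adjusted p 0.871), 375 (1.88%) had an unadjusted p under 0.05, and DESeq2 called 4. The 375 became 578, 1288, 1168 and 854 without mouse 20, 22, 24 and 8. The interaction of Flt4 was 1.24 (SE 0.42) and that of Mmrn1 3.01 (SE 1.00), neither past the adjusted threshold. Mmrn1 was at 0.112 to 0.262 CPM in the Cabo tumors and 0.225 to 1.80 CPM in the IL-27+Cabo tumors. All 22 type I interferon genes had an interaction above 0 (median 1.40), and 8 of them an unadjusted p under 0.05, the adjusted p being 0.952 for Oasl1 (0.97, SE 0.32) in edgeR. The 3 genes with the lowest interaction p in each direction were Gm13304 (another Ccl21 copy, uncertain), Fndc9 and Cdh19 above 0 and Fam124b, Zfp759 and 5430421F17Rik below 0. All but Zfp759 and Gm13304 were below 0.5 CPM in every day 14 tumor. Zfp759, a zinc finger gene, was at 0.356, 0.487 and 0.366 CPM in the IL-27+Cabo tumors and between 1.39 and 3.40 CPM in the other 9.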

How the data were processed

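Poly(A) RNA of each tumor (RNA integrity number of at least 8) was sequenced from TruSeq stranded libraries, and the deposited table holds raw counts per Ensembl gene (55401 genes) with 63729005 to 73610110 counts in the 6 libraries compared here. Trimming with cutadapt, mapping with HISAT2, assembly with StringTie and testing with DESeq2 are named in the study's methods and the submitters' processing notes. The notes name GRCh38 for these mouse samples. The gene identifiers are mouse, 55141 of them in GENCODE M21 (GRCm38), and that annotation gave all names and coordinates here. The counting program and its use of strand are not given in the sources used here. Among low counts, 31.3 to 35.5% in each of these 6 libraries were multiples of 4, so counts divided by 4 were tried as an alternative.

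Genes were filtered with filterByExpr, scaled by TMM and tested in edgeR 4.0.16 (R 4.3.3, limma 3.58.1) with the quasi-likelihood F test and Benjamini-Hochberg adjustment, on the 2 groups compared, or on all 12 day 14 tumors for the interaction. CPM values use the TMM library sizes. The scripts were tested on simulated data with known changes. An exact test of 3 against 3 tumors cannot go below p = 0.1, so single values were given no such test. A fold against a group at 0 uses 3 counts over that group as its limit, which covers counting error only. Alternatives were DESeq2 1.42.0, RLE scaling, no filter, a muscle covariate (mean log2 level of 24 muscle genes), a spline fit that took out the dependence on GC content and transcript length in each library, counts divided by 4, all 4 groups in 1 fit and leaving out each tumor.

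The genes named were the 10 in each direction with the lowest p among protein-coding genes without overlap (adjusted calls first and then DEGs), all target kinases and both IL-27 chains, the 3 members of each of the 32 lists with the lowest p and others where a list is described, and the 3 in each direction with the lowest interaction p. The comparison, the lists and the tests were chosen with earlier results of these data known, so no list count is independent support. Promoter stretches came from RefSeq (GRCm38.p6). Some genes are not reported here.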

Additional observations from a re-analysis of the deposited data

Results flagged for a closer look

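In 5 gene lists the mean level differed with opposite signs under the 2 vectors: every cabo tumor lay on 1 side of the mean of its vehicle group under IL-27 and on the other side under the empty vector. Levels are means of log2(CPM + 0.1) over the list, and none of these differences was tested. In all 5 lists the IL-27+Cabo and IL-27 tumors overlapped. The hypoxia list differed by -0.443 between IL-27+Cabo and IL-27 and by 0.292 between Cabo and Control. The mast cell list differed by 0.336 under IL-27 and -0.543 under the empty vector. Its genes were low, with mean levels of -0.943 in IL-27+Cabo and -1.28 in IL-27. Its summed level did not show opposite signs. Under IL-27 it was 8.03, 7.11 and 7.21 CPM with cabo and 12.6, 7.80 and 11.2 CPM without. Under the empty vector it was 8.11 to 8.27 CPM with cabo and 11.7 to 14.6 CPM without. The regulatory T cell and checkpoint list differed by 0.231 and -0.352, and the pericyte and mural list by 0.0835 and -0.348, although its median log2 fold change was below 0 under both vectors (-0.09 and -0.19). The ligands of the target kinases differed by -0.114 and 0.0803. No test for a single outlying value was run in groups of 3.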

How the results depend on the processing

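No paired analysis was possible because the mouse numbers are unique and the groups share none. For IL-27+Cabo against IL-27, the adjusted calls were 119 with DESeq2 and 15 with all 4 groups in 1 fit, 0 with every other planned setting and 0 with each tumor left out. Upregulated and downregulated DEGs were 715 and 221 with DESeq2, 536 and 207 without the filter and 684 and 195 with all 4 groups in 1 fit, and upregulated DEGs were 184 with the muscle covariate. Leaving out each tumor gave 172 to 736 upregulated and 100 to 196 downregulated DEGs. Leaving out mice 20 and 8 together, chosen after seeing the data, gave 455 adjusted calls and 795 and 246 DEGs. For Cabo against Control, adjusted calls were 1324 with DESeq2, 101 without the filter, 26 with all 4 groups in 1 fit, 0 with the muscle covariate and 80 to 588 with a tumor left out, and downregulated DEGs were 352 without the filter and 136 with counts divided by 4. The interaction had 4 adjusted calls with DESeq2, and at an unadjusted p under 0.05 had 694 genes with DESeq2, 810 without the filter, 248 with counts divided by 4 and 277 to 1288 with a tumor left out. The cause of these moves was not tested. Of the genes called under the empty vector, the share with the same sign under IL-27 stayed at 89.7 to 99.1% (higher) and 77.6 to 96.1% (lower) with a tumor left out.

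Of the 32 genes (the leading genes, the tested kinases and Ebi3) recomputed one by one under every setting, 6 turned sign, all of them kinases: Flt3 (-0.42) and Ntrk2 (-0.039) with the muscle covariate and Mertk (-0.049) with the GC and length trend removed. With a tumor left out, Met ranged from -0.095 to 0.69, Axl from -0.46 to 0.091, Mertk from -0.35 to 0.52, Flt3 from -0.24 to 0.39 and Tek from -0.34 to 0.20, and with mice 20 and 8 both out Flt3 was 0.51, Tek 0.29 and Axl 0.09. Over all settings, 381 values of these genes kept their direction and side of the adjusted threshold and 50 newly passed it, and of the list medians 350 moved by less than the spread between tumors and 98 by more. Lowly counted genes such as Kcne3, Ackr2 and Bmx rest on few reads, and 3 tumors a group limit every test.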

Other observations

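At the end of the study, where each group had 2 tumors harvested at the ethical endpoint and no test was run, the vascular genes did not keep their day 14 order. Dll4 was at 16.8 and 18.8 CPM in the IL-27+Cabo tumors (mice 16 and 28) and 6.87 and 10.2 CPM in the IL-27 tumors (mice 10 and 12), higher with cabo where it had been lower on day 14. Flt4 was at 18.6 and 19.6 against 15.7 and 19.1 CPM, and Esm1 at 9.85 and 6.89 against 11.5 and 9.15 CPM. Emcn, the capillary sialomucin, was at 18.6 and 32.2 against 10.3 and 12.04 CPM. None of these 4 genes was as low in an IL-27+Cabo tumor at the end of the study as in the 3 tumors of day 14. The labels do not give the day of these harvests, and daily gavage ran for 2 weeks per the study's methods.

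The interferon genes kept the day 14 order. The summed level of the 22 type I interferon genes was 514 and 1498 CPM in the IL-27+Cabo tumors and 155 and 210 CPM in the IL-27 tumors, beside 479 and 248 CPM with cabo alone and 158 and 303 CPM in Control. Oas3 was at 12.6 and 56.2 CPM in IL-27+Cabo and 1.40 and 2.21 CPM in IL-27. The summed muscle level in the same tumors was 290 and 134 CPM in IL-27+Cabo and 15.1 and 24.5 CPM in IL-27, and its part in these values was not tested.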
